A study of Homo sapiens with 2 samples.

Results

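The 10 genes described here encode the transcription factor NRF2 (NFE2L2), its inhibitor KEAP1 and 8 enzymes or carriers of thiol and quinone defence, namely GCLC, GCLM, GSR, TXN, TXNRD1, SRXN1, NQO1 and HMOX1. They were chosen by name as the core of the NRF2 pathway, with earlier results of these data known. All 10 were found once each among the 17687 named genes of the array. Of these, 9 were among the 8750 protein-coding genes bright enough to be compared, and HMOX1 was below the brightness minimum. Expression was measured on 2 whole-transcript arrays of the established human colorectal cancer line DLD-1. The siYY1 culture received 1 siRNA product against the transcription factor YY1, and the siControl culture a non-targeting siRNA, both at 5 nmol/L with the same lipid reagent, with RNA taken after 3 days. The study set these arrays side by side to find genes whose level differs after YY1 knockdown.

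With 1 array per group there was no replicate error, no test and no p-value, so every difference compares these 2 arrays and not the conditions. Values are log2 expression after quantile normalization of the pair, and each difference is siYY1 minus siControl. A gene was compared if the higher of its values was no less than 7.50, which is its median across the named genes. No named probe set belonged to YY1, so the knockdown was not analysed here and the labels alone define the groups. Of 13 named markers of colorectal epithelium, 9 passed the brightness minimum, with EPCAM at 16.5 in siYY1 and 16.3 in siControl. Of those 9, 6 lay below 0, against 50.4% of all genes compared. Their median was -0.14 and the lowest was CDX2 at -0.76. CDX1, LGALS4, ELF3 and CEACAM5, also markers of that epithelium, did not pass it. Of markers of other cells, 1 of 7 for fibroblasts passed it (COL1A2, at 8.84 in siYY1 and 8.62 in siControl), 2 of 6 for leukocytes (TYROBP, at 8.06 in siYY1 and 8.09 in siControl, and CD14, at 6.95 in siYY1 and 7.67 in siControl) and 0 of 5 for endothelium. Their part in the results was not tested. The arrays' number limits the precision. As a gauge of dim values, 15 genes restricted to other tissues differed by between -1.35 and 0.64, and none of their values was above 6.79. Where a gene had several probe sets, as 20 did, they disagreed on its difference by a median of 0.38 and at most 0.98.

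NRF2 drives genes that carry antioxidant response elements. In unstressed cells KEAP1 holds NRF2 and passes it to a CUL3 ubiquitin ligase for destruction, and oxidants or electrophiles that modify KEAP1 let NRF2 accumulate. Much of this control therefore acts on protein and is not read by an array of RNA. The products of NRF2 target genes make and reduce glutathione, reduce thioredoxin, repair overoxidized peroxiredoxins, and detoxify quinones and haem.

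The antioxidant response element core (TGACNNNGC) and a YY1 motif (AANATGGC) were searched on both strands of RefSeq promoter windows (GRCh38.p14), each running from 250 bases before a gene's start to 50 after it. Windows were matched for 8 of the 10 genes, 11 windows in all, as NFE2L2, KEAP1 and TXNRD1 have more than 1. The promoters of TXNRD1 and GCLM are shown because these were the genes compared that differed at least 2-fold, in opposite directions, and capitals mark the matches to the element core. All 3 windows are written 5′ to 3′ on the gene's strand. The first TXNRD1 window lies at chr12:104215529-104215828 (plus strand), the second at chr12:104286782-104287081 (plus strand) and the GCLM window at chr1:93909381-93909680 (minus strand).
TXNRD1 first window: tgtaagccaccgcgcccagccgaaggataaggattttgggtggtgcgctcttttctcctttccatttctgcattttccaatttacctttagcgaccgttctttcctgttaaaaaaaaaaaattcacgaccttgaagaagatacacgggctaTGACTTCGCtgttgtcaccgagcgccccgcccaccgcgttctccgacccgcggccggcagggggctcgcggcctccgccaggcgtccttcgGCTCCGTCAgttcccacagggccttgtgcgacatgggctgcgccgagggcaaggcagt
TXNRD1 second window: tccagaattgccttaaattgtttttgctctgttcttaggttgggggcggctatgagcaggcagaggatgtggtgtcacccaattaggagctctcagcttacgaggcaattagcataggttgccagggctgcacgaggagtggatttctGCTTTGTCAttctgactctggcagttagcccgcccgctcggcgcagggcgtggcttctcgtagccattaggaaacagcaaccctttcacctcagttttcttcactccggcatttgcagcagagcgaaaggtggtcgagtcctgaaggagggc
GCLM window: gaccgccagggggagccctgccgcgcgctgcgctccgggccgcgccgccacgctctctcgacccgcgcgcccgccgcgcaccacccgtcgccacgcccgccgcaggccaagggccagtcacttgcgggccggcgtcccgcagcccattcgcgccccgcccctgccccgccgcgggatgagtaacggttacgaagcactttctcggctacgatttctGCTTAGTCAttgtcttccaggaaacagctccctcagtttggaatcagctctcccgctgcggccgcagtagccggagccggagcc

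The first TXNRD1 window held the core on the gene's strand at -99 and on the opposite strand at -8, counted as the leftmost base before the start. In its second window the core stood on the opposite strand at -102, and in GCLM on the opposite strand at -34. KEAP1 was the other gene with the core, with matches at -54 on the gene's strand and -31 on the opposite strand of its second window. Matches were thus found in 3 of the 8 genes, although a gene with several windows has more chances. By window they were in 4 of the 11, against 13.3% of all 35116 windows. The YY1 motif was in none of the 11 windows and in 6.58% of all windows, and no match overlapped another. A match describes letters only, and these windows leave out more distant elements.

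Of the 9 genes compared, 1 was at least 2-fold higher in siYY1 (GCLM) and 1 at least 2-fold lower (TXNRD1), while the other 7 were under 2-fold. Among all 8750 genes compared, 7.92% were higher and 9.38% lower by 2-fold or more, so 1 in 9 either way is near the background. Below 0 lay 6 of the 9, against 50.4% of all genes. The members' median was -0.46, which is the difference of SRXN1, against -0.01 for all genes compared. SRXN1 passed the brightness minimum only through its higher siControl value, so it had to differ. Among the 8 members with both values past the minimum, an alternative chosen after seeing the data, 5 lay below 0 and the median was -0.37. All genes with both values past it had 50.2% below 0 and a median of -0.01. The differences of the 9 members compared had an SD of 0.82 around their mean, and those of all 8750 genes compared an SD of 0.75. In RNA of whole cultures, fewer cells with a transcript and less of it per cell cannot be told apart. As a list the genes did not share a direction: they ran from -1.71 to 1.15.

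**Figure D1:**
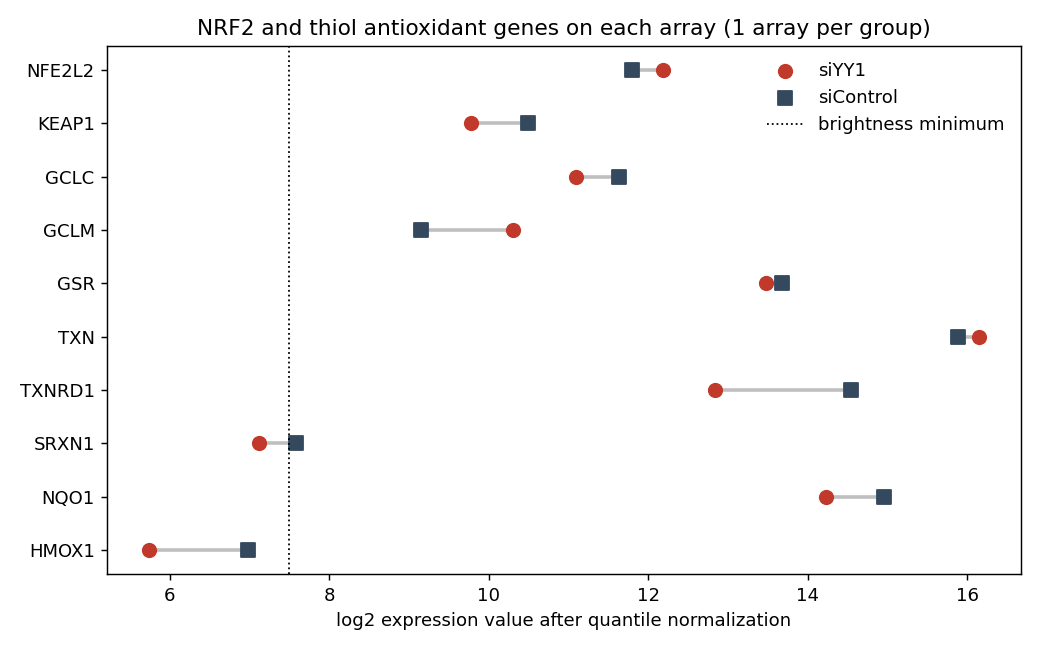
Log2 expression of the 10 genes after quantile normalization, with 1 point per array (circles, siYY1; squares, siControl) and a dotted line at the brightness minimum of 7.50. TXNRD1 shows the widest gap, GCLM the widest in the other direction, and both HMOX1 values lie left of the line.

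The regulators differed by less than 2-fold, with opposite signs. NFE2L2, which encodes NRF2, was at 12.2 in siYY1 and 11.8 in siControl, a difference of 0.39 (1.31-fold higher). That is close to 0.38, the median gap between probe sets of 1 gene. It was 0.25 as deposited and 0.18 after centring on medians, so the direction of NFE2L2 is uncertain. KEAP1, the inhibitor of NRF2 and its adaptor to the ligase, was at 9.77 in siYY1 and 10.5 in siControl, a difference of -0.71 (1.64-fold lower). The gap between these differences was 1.11 on the log2 scale. Neither was far out among all genes: 27.6% of those compared differed by as much as NFE2L2 or more upward, and 17.2% by as much as KEAP1 or more downward.

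The subunits of glutamate-cysteine ligase, which makes the first and rate-limiting bond of glutathione, lay on opposite sides. GCLM, the modifier subunit that raises the enzyme's activity, was at 10.3 in siYY1 and 9.15 in siControl. Its difference of 1.15 made it 2.22-fold higher, and 466 of the genes compared (5.33%) were as far up or farther. GCLC, the catalytic subunit, was at 11.1 in siYY1 and 11.6 in siControl, a difference of -0.54 (1.45-fold lower). The differences of the subunits were therefore 1.69 apart, and between 1.69 and 1.71 apart under the other settings. A shift of a whole array cannot change that gap, so this range is no measure of error. That GCLM passed 2-fold depended on the scaling, since it differed by 0.95 when the arrays were centred on their medians, a setting that moved the median of all genes compared by -0.19.

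TXNRD1 was the farthest of the 10 from 0. This cytosolic selenoenzyme uses NADPH to keep thioredoxin reduced. It was at 12.8 in siYY1 and 14.5 in siControl, so that the difference was -1.71 (3.26-fold lower). Only 148 genes, 1.69% of those compared, were as far down or farther. It was bright, above 93.2% of the genes compared in mean value, and in the brightest of 3 equal parts 6.79% of genes were at least 2-fold lower. The gene EID3 lies within the span of TXNRD1 and was dim, at 6.35 in siYY1 and 5.93 in siControl, a difference of 0.42. RefSeq also places antisense genes at TXNRD1, GCLC and NQO1, and whether the probe sets read them was not tested.

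The other thiol carriers and reductases were under 2-fold. TXN, thioredoxin itself, was at 16.1 in siYY1 and 15.9 in siControl, a difference of 0.26 (1.20-fold higher). It stood 1.97 above its reductase TXNRD1 in difference. Thioredoxin has pseudogenes, and whether its probe set also reads them was not tested. GSR, which reduces oxidized glutathione with NADPH, was at 13.5 in siYY1 and 13.7 in siControl, a difference of -0.21 (1.16-fold lower). SRXN1, which restores overoxidized peroxiredoxins, was at 7.12 in siYY1 and 7.58 in siControl, a difference of -0.46 (1.37-fold lower). Its siYY1 value was below the brightness minimum, so this size is uncertain.

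Both detoxifying enzymes were lower in siYY1. NQO1, which reduces quinones by a pair of electrons and is a widely used readout of NRF2, was at 14.2 in siYY1 and 15.0 in siControl. This difference of -0.72 (1.65-fold lower) was under 2-fold, and 17.0% of the genes compared were as far down or farther. HMOX1, the inducible haem oxygenase, was at 5.74 in siYY1 and 6.97 in siControl. The difference of -1.24 (2.36-fold lower) is uncertain, because the siYY1 value lay in the range of the tissue-restricted genes and the siControl value just above their highest. Of the 8499 protein-coding genes under the brightness minimum, 1.85% were at least 2-fold lower. Yet 1 of the 15 tissue-restricted genes, MBP, differed by as much at like brightness. It was at 5.45 in siYY1 and 6.79 in siControl, a difference of -1.35.

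**Figure D2:**
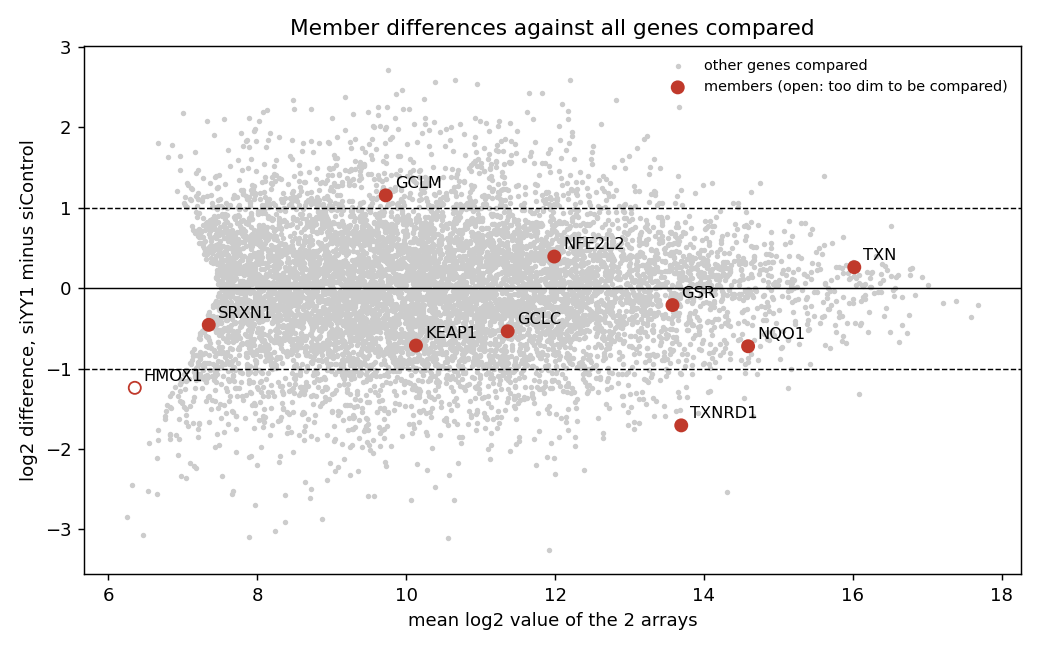
Log2 difference, siYY1 minus siControl, against the mean log2 value of both arrays for the genes compared (grey) and the 10 members (red, HMOX1 open because it was too dim to be compared). Dashed lines mark 2-fold, and of the compared members only TXNRD1 at -1.71 and GCLM at 1.15 lie beyond them.

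Other genes of the pathway were taken from 8 lists by role, also chosen with earlier results of these data known. The lists hold none of the 10 genes above and 188 others. Of these, 133 were compared, 85 (63.9%) lay below 0, 18 (13.5%) were at least 2-fold lower and 6 (4.51%) higher to that degree. The same shares over all genes compared were 50.4%, 9.38% and 7.92%. The median was -0.17. Past 2-fold, 6 of 24 genes were higher, against 5 of 31 in the values as deposited and 4 of 33 after centring on medians. Over all genes the share of higher calls was 45.8%, against 33.4% as deposited and 26.0% after centring. The balance of directions therefore moved with the scaling.

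Partners of NRF2 and KEAP1 had members far from 0 on both sides. Of 17 compared, 3 were higher and 1 lower by 2-fold or more, against 7.92% and 9.38% of all genes compared. The median was -0.08. CREBBP, an acetyltransferase that serves as an NRF2 coactivator, was at 13.1 in siYY1 and 11.0 in siControl, a difference of 2.01. GSK3B, a kinase that marks NRF2 for a KEAP1-independent ligase, differed by 1.75 (14.0 in siYY1 and 12.2 in siControl). SYVN1, an endoplasmic reticulum ubiquitin ligase reported to degrade NRF2, was at 1.02, but below 2-fold in the values as deposited (0.88) and after centring on medians (0.81). SQSTM1, the autophagy receptor p62 that sequesters KEAP1 and is itself an NRF2 target, was at 12.8 in siYY1 and 13.8 in siControl, a difference of -1.07.

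The ligase that acts with KEAP1 was little different, with its scaffold CUL3 at 0.27 and its RING subunit RBX1 at 0.29. BACH1, a repressor that competes with NRF2 for the same elements, was at 9.82 in siYY1 and 10.5 in siControl, a difference of -0.65. Among the small MAF proteins that pair with NRF2 on DNA, MAFF differed by 0.84, and MAFG was too dim to be compared, at 5.72 in siYY1 and 5.65 in siControl. MAFK was not among the named genes and was not analysed here.

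A list that holds glutathione synthesis with its degradation, export and precursor transport had a median of -0.12 over 14 genes. CHAC2, a glutathione-degrading cyclotransferase, was at 8.51 in siYY1 and 10.4 in siControl, a difference of -1.91 (3.77-fold lower). ABCC3, an exporter of conjugates, was the list's single gene at least 2-fold higher, at 1.26. Of 25 peroxidases, transferases and glutaredoxins, 18 lay below 0, 3 were at least 2-fold lower and none was as much higher, with a median of -0.24. Over all genes compared, 50.4% lay below 0, 9.38% were at least 2-fold lower and 7.92% as much higher. The 3 lower ones were GPX3, GPX8 and GPX1. GPX3, a secreted glutathione peroxidase, was at 8.30 in siYY1 and 10.3 in siControl (-1.95), GPX8, an endoplasmic reticulum form, differed by -1.64 and the cytosolic GPX1 by -1.06. GPX8 passed the brightness minimum only through siControl, at 7.20 in siYY1 and 8.84 in siControl. Without that gene 17 of 24 were below 0 and the median was -0.21. The lipid peroxidase GPX4, named after its value was seen, was at 14.3 in siYY1 and 14.4 in siControl, a difference of -0.08.

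Thioredoxin family genes had a median of -0.14 over 22 genes, with 4 at least 2-fold lower and none as much higher. Below 0 lay 14 of the 22, against 50.4% of all genes compared. The highest, TXNL4A at 0.96 (1.95-fold higher), was just short of 2-fold. The shares over all genes compared were 9.38% lower and 7.92% higher. The mitochondrial thioredoxin TXN2 was at 10.9 in siYY1 and 12.7 in siControl, a difference of -1.77 (3.41-fold lower). NXN, nucleoredoxin, differed by -1.45, the endoplasmic reticulum protein TXNDC5 by -1.11 and the mitochondrial peroxiredoxin PRDX3 by -1.11.

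Reductases such as TXNRD1, GSR and NQO1 draw on NADPH or NADH. In the NADPH list, 3 of 15 genes were at least 2-fold lower and none as much higher. Of all genes compared, 9.38% were lower and 7.92% higher to that degree. PGD, a dehydrogenase of the pentose phosphate pathway, was at 11.3 in siYY1 and 13.2 in siControl, a difference of -1.96. The folate enzyme MTHFD1 differed by -1.36 and the mitochondrial malic enzyme ME3 by -1.13. The list's median was 0.09, and its sign turned under other scalings, at -0.05 as deposited and -0.12 after centring on medians.

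The further quinone, carbonyl, haem and iron genes lay mostly below 0, as did NQO1. HMOX1 was too dim to be compared. Of 20 compared, 17 were below 0, against 50.4% of all genes compared, and the median was -0.44. At least 2-fold lower were 3 and none was as much higher, against 9.38% and 7.92% of all genes compared. The count of 17 was the same as deposited and after centring on medians, where 56.8% and 61.5% of all genes lay below 0. It includes OSGIN1, which passed the brightness minimum only through siControl. Without that gene 16 of 19 were below 0. Some of those below 0, such as NQO2 at -0.14 and PIR at -0.16, were nearer 0 than 0.38, the median gap between probe sets of 1 gene. SLC48A1, a haem transporter, was at 8.21 in siYY1 and 9.62 in siControl, a difference of -1.41. BLVRA and BLVRB are the biliverdin reductases. BLVRA was at 10.5 in siYY1 and 11.8 in siControl, a difference of -1.28. BLVRB was at 11.2 in siYY1 and 12.3 in siControl, a difference of -1.06. Other haem and iron genes of the list, named after their values were seen, were nearer 0. The constitutive haem oxygenase HMOX2 differed by -0.28, the ferritin light chain FTL by -0.35, and the haem synthesis enzymes FECH by -0.23 and ALAS1 by 0.34.

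Only 4 superoxide and peroxide genes were compared and none passed 2-fold. Catalase (CAT) was the highest at 0.67 and the NADPH oxidase subunit CYBA the lowest at -0.46. TXNRD1 needs the machinery that inserts selenocysteine. This list of 16 genes had 3 lower and 2 higher by 2-fold or more, against 9.38% and 7.92% of all genes compared. Its median was -0.17. EEFSEC, the elongation factor that delivers selenocysteine, was at 8.64 in siYY1 and 10.3 in siControl, a difference of -1.69. SECISBP2L, a paralog of the protein that binds the selenocysteine insertion element, differed by 1.16, and by 0.94 after centring on medians. Of the selenoproteins, SELENON of the endoplasmic reticulum was at 10.7 in siYY1 and 8.49 in siControl, a difference of 2.25 (4.77-fold higher), while the phospholipid enzyme SELENOI differed by -1.38.

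**Figure D3:**
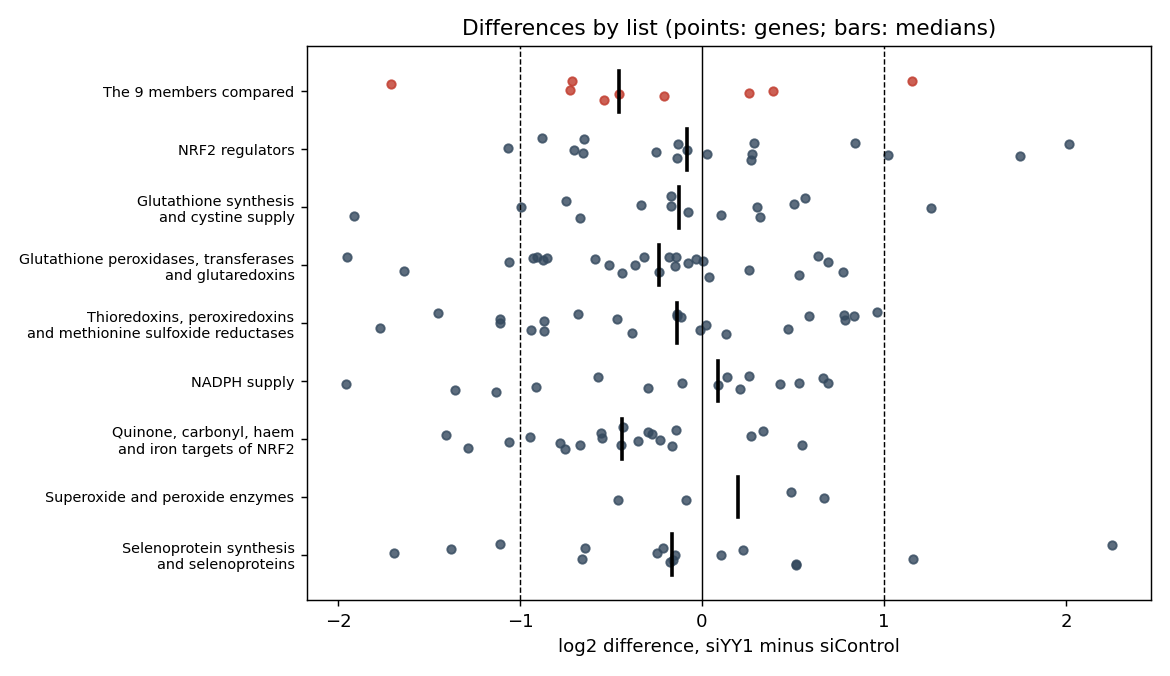
Log2 difference, siYY1 minus siControl, of each compared gene (points) in the 9 members (red) and in the 8 pathway lists (blue), with black bars at the medians and dashed lines at 2-fold. The quinone, carbonyl, haem and iron list has 17 of its 20 genes below 0 and a median of -0.44.

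The members' directions did not depend on the scaling tried. All 10 kept their sign in the values as deposited, after centring on medians and after loess on brightness. TXNRD1 ran from -1.93 to -1.71, GCLM from 0.95 to 1.15, NQO1 from -0.95 to -0.72 and KEAP1 from -0.92 to -0.71. TXN lay between 0.14 and 0.30, NFE2L2 between 0.18 and 0.40, and GSR between -0.46 and -0.21. The as-deposited values moved the median of all genes compared by -0.12.

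**Figure D4:**
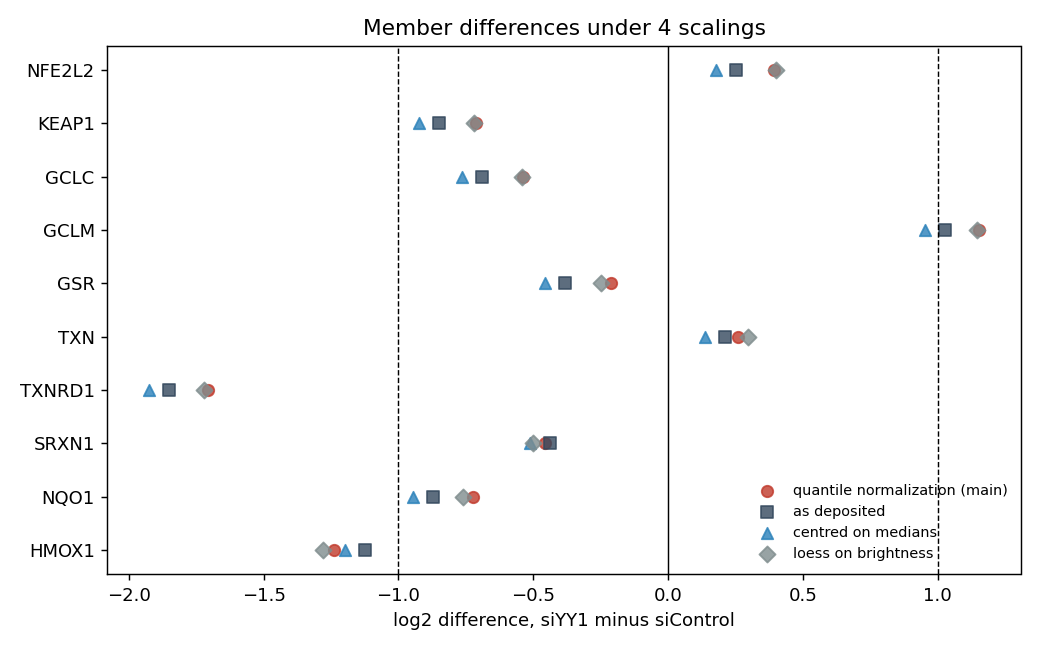
Log2 difference, siYY1 minus siControl, of the 10 genes under quantile normalization and 3 other scalings of the same 2 arrays, with dashed lines at 2-fold. GCLM at 0.95 after centring on medians is the only member value that moves to the other side of a 2-fold line.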

How the data were processed

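The sample titles gave the groups, with 1 array in each. Per the labels' protocols, total RNA was turned into biotin-labelled sense cDNA for a whole-transcript GeneChip. The authors deposited 1 value per probe set, taken here as log2 from its range of 2.51 to 17.9; its software and normalization are not named in the labels or file. The 3 quartiles of the siYY1 array minus those of the siControl array were 0.18, 0.07 and -0.13, so the pair was quantile normalized. A platform annotation named 1 gene for 17709 of 21448 probe sets, none several; all 17709 matched RefSeq (GRCh38.p14) by gene ID. Probe sets of a gene were averaged. Protein-coding genes at or above the 50th percentile of the higher value were compared, and called at 2-fold. Members and lists were chosen with earlier results of these data known. By rule the text names all members and the regulators CUL3, RBX1, SQSTM1, BACH1 and small MAF genes. Per list it names up to 4 genes past 2-fold, farthest first, or the highest and lowest where none is. Cell type markers were also to be named whatever their values, but the text gives their counts and names only some. Other genes were named after their values were seen. The computation was tested on simulated data with little noise and planted shifts past 2-fold. That checks the code and not the certainty of any call. Alternatives were other scalings, the brightest probe set, other filters, folds and gene types. Scripts ran under Python 3.11.15, with statsmodels 0.14.6 for loess, pandas 2.3.3 and numpy 2.4.6 for tables, and matplotlib 3.10.9 for plots.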

Additional observations from a re-analysis of the deposited data

How the results depend on the processing

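Each value is a single difference, so a change under another setting was read against 0.38, the median gap between probe sets of 1 gene. By that measure no member difference, GCLM to GCLC gap or member median moved, and none changed sign. Each member had 1 probe set, so the probe set, filter and gene type settings could not change its difference. Scalings move genes of like brightness together, so this steadiness is no measure of the error between arrays. Centring on medians left 0 members at least 2-fold higher, 29 pathway genes lower, and 440 higher and 1251 lower of all genes. Without a brightness filter 2 members were lower, because HMOX1 then counted. At the 75th percentile of brightness, where fewer genes are compared, only 6 members remained. Of these 0 were higher, because GCLM was then too dim, while its difference was still 1.15. At that filter 11 pathway genes were lower, and 365 higher and 382 lower of all. At 1.5-fold, 3 members were lower, 18 pathway genes higher and 41 lower, and 1699 higher and 1910 lower of all. At 3-fold, 0 members were higher, 3 pathway genes higher and 6 lower, and 165 higher and 213 lower of all. The member median with both values past the brightness minimum is an alternative chosen after seeing the data. No paired analysis was possible because each group was a single array.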

Other observations

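Among the thioredoxin family genes compared, a few were looked up by compartment after their values were seen, so they are values and no group result. The mitochondrial reductase TXNRD2 was at 10.9 in siYY1 and 11.8 in siControl, a difference of -0.94 and under 2-fold. PRDX3, a mitochondrial peroxiredoxin, was at 12.7 in siYY1 and 13.8 in siControl. The methionine sulfoxide reductases MSRA and MSRB2, which thioredoxin serves, lay the other way at 0.78 and 0.59, and MSRB1 was at -0.38. In the cytosol the peroxiredoxins PRDX1 and PRDX2 both differed by -0.14.

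Of the cystine supply genes, also named after their values were seen, the transporter subunits SLC7A11 and SLC3A2 were at -0.08 and 0.10, and the glutathione synthetase GSS at -0.17. Among the dim genes AKR1B10, an aldo-keto reductase induced by NRF2, was at 5.80 in siYY1 and 4.63 in siControl, a difference of 1.18 in the range of values too dim to be compared.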
